A study of Mus musculus with 5 samples.

Results

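This account covers 9 homeodomain genes of the early pancreatic bud (Pdx1, Mnx1, Nkx6-1, Nkx6-2, Nkx2-2, Hhex, Prox1, Meis1 and Meis2) in mouse embryos that lack Ptf1a. They were taken by symbol, as every probe set whose platform annotation names 1 gene and that gene is in the set, which gave 17 of the 45037 probe sets tested and 9 of the 18193 genes they name. Dorsal pancreatic buds of C57BL/6J embryos from heterozygous matings were collected at E10.5, and their mesenchyme was dissected away. Ptf1a null buds (n = 3 arrays) were compared with Ptf1a heterozygous buds (n = 2 arrays). Each array held RNA from a pool of 3 buds that had passed through 2 rounds of linear amplification. The controls therefore carried 1 mutant allele, no wild-type bud was included, and the labels do not give the structure of the mutant allele. They also do not say whether pools of a genotype came from separate litters, so p-values measure only the spread between these pools, which may be in part technical.

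Homeodomain proteins bind DNA through a conserved helical domain and specify regional and cell identity. In the foregut endoderm Pdx1 marks the pancreatic field, Mnx1 is needed for the dorsal bud to form, and Nkx6-1 and Nkx2-2 act in progenitors and later in endocrine cells. Meis proteins belong to the TALE class, which bind DNA together with Pbx and Hox-like partners such as Pdx1. Ptf1a is a basic helix-loop-helix factor of pancreatic progenitors that binds within a complex to a bipartite site made of an E-box and a TC-box.

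Median deposited signal was between 13.7 and 17.5 on the 5 arrays, and 60.9% to 65.2% of probe sets lay above a background level set from 27 control probe sets for bacterial genes (3.03 to 3.29 on the log2 scale). Values below are quantile-normalised log2 signals unless stated otherwise. The bud's own markers were present, since Sox9, Foxa2, Cdh1 and Epcam lay above background on every array. Ptf1a itself (1419424_at) had 7.10 and 7.33 on the heterozygote arrays and 5.21, 6.07 and 5.00 on the null arrays. Every null array was lower, but the probe set stayed above background in nulls, and with no description of the allele it cannot check the genotypes. Having 2 and 3 arrays sets the precision throughout.

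None of the 17 probe sets passed the test, and Mnx1 differed most. It was 6.40-fold lower in nulls. Pdx1 was lower by 1.42-fold and 1.79-fold at its 2 probe sets and Prox1 by 1.55-fold to 2.01-fold at its 3, with the groups apart at both probe sets of Pdx1 and at 1 of Prox1. Nkx6-2 and Hhex were somewhat higher in nulls with overlapping groups, and Meis1 and Meis2 differed little. All 17 probe sets lay above background on all 5 arrays, with signals from 4.01 to 9.14.

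**Figure D1:**
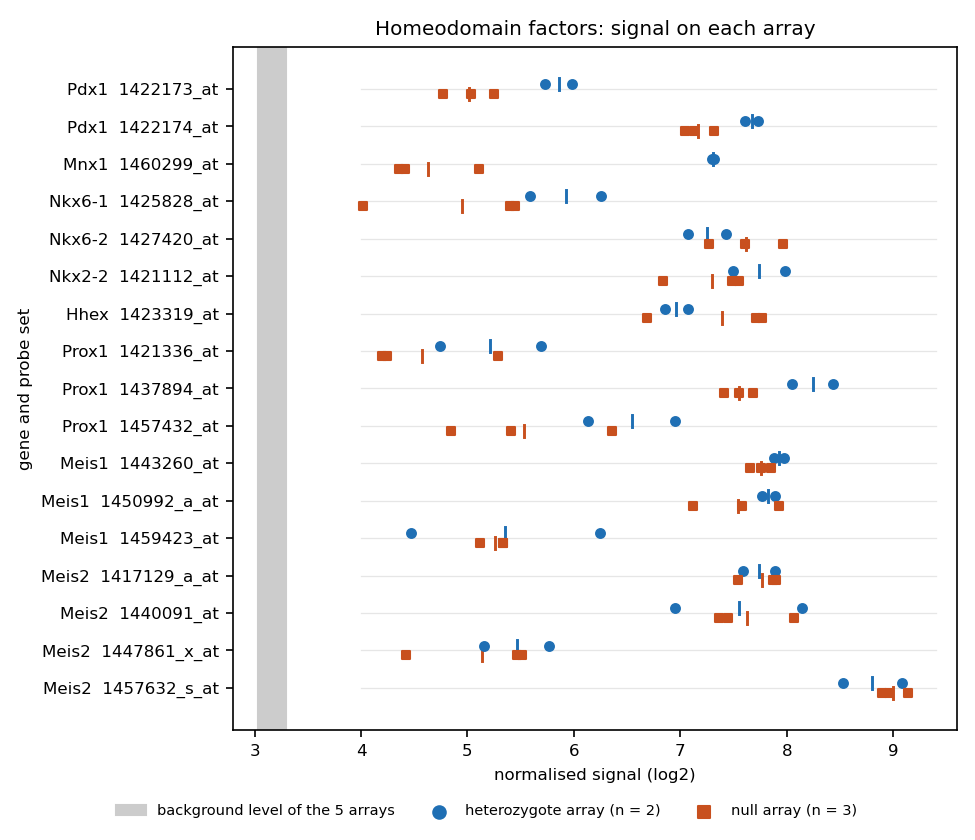
Normalised log2 signal (horizontal axis) of the 17 probe sets of 9 homeodomain genes on each heterozygote array (circles) and null array (squares), with short bars at the group means and a grey band at the background level of the arrays. Mnx1 shows the widest gap between genotypes, the null arrays at 4.36 to 5.11 and both heterozygotes near 7.31.

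Mnx1 encodes a homeodomain factor known in the dorsal bud and in motor neurons. Its only probe set, 1460299_at, read 7.31 and 7.30 on heterozygote arrays 1 and 2, and 5.11, 4.36 and 4.41 on null arrays 1 to 3. The heterozygotes were nearly equal, each null array was lower by more than the whole spread among nulls, and null array 1 was the highest of the 3. As deposited, before normalisation, the signals were 184 and 156 against 38.0, 17.6 and 22.1. Heterozygotes averaged 7.31 ± 0.01 (SD, n = 2) and nulls 4.63 ± 0.42 (SD, n = 3), a log2 change of -2.68 (SE 0.41, 95% interval -3.73 to -1.62). Among the 20815 probe sets above background on all arrays, 3 had a more negative change than Mnx1.

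The difference in Mnx1 did not pass adjustment over all probe sets, at limma adjusted p = 0.369 in the untrended fit, which gives every probe set the same prior variance, and at 0.0612 in the trended fit, where the prior variance follows signal level. By p-value Mnx1 was in place 158 of 45037 in the former and 10 in the latter. The untrended fit called 0 probe sets on the whole array (0%) at an adjusted p under 0.05, although 2484 had an unadjusted p under 0.05. The trended fit called 8 (0.0178%). None of the 17 homeodomain probe sets was called by either of these fits, which does not show that their levels were equal. There was 1 under an unadjusted p of 0.05 in the untrended fit (Mnx1) and 2 in the trended fit (Mnx1 and Prox1 1437894_at). With dim probe sets removed, so that fewer were tested, 10 probe sets were called on the whole array and the trended limma adjusted p of Mnx1 was 0.03. With an offset of 16 added to the signals, 10 were called and that adjusted p was 0.0374. With 1 array left out it ranged from 0.16, without null replicate 1, to 0.49, without heterozygote replicate 2. These trended combinations were added after seeing the data.

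**Figure D2:**
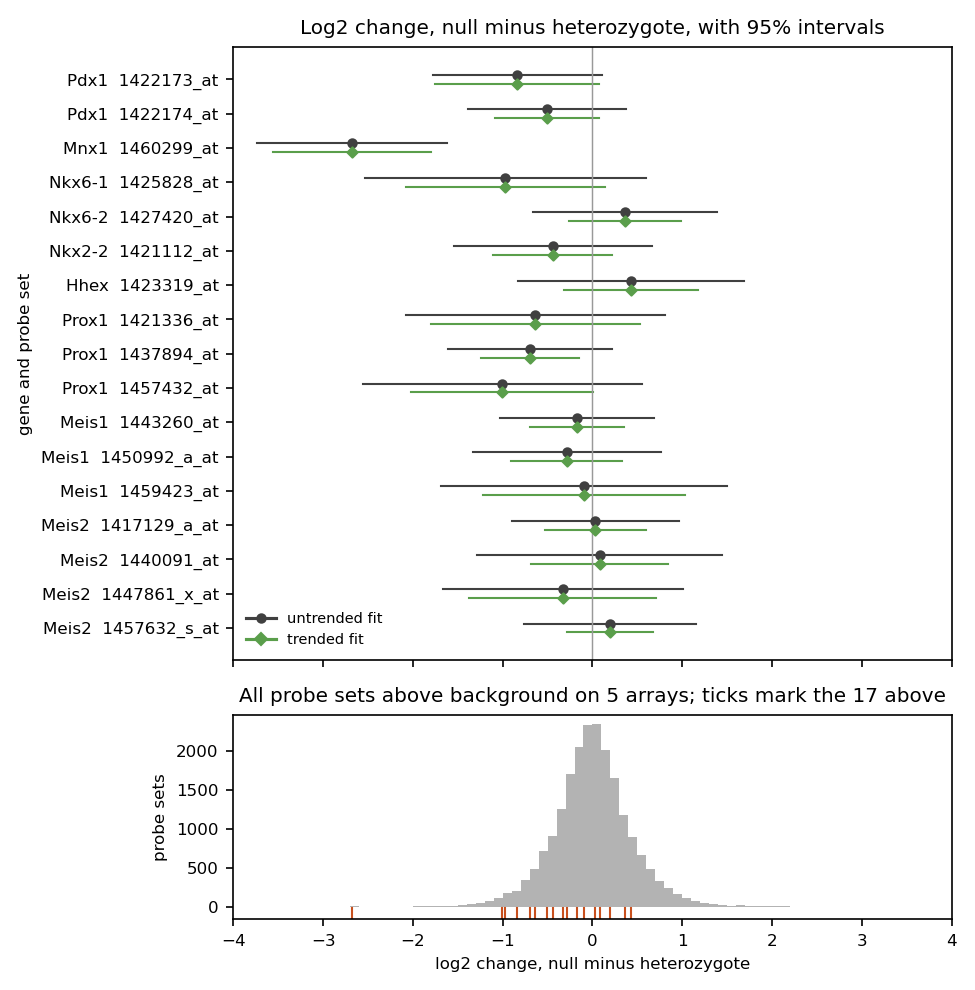
Upper panel, log2 change (null minus heterozygote) of each homeodomain probe set with 95% intervals from the untrended fit (circles) and the trended fit (diamonds); lower panel, the same change for the 20815 probe sets above background on all arrays, in bins of 0.1, with ticks at the 17 homeodomain probe sets. The intervals of Mnx1 lie wholly below 0, and those of the other 16 cross 0 in the untrended fit.

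The change of Mnx1 was set against that of each other gene, at its brightest probe set, by taking the difference between the 2 signals within every array. Mnx1 was lower in nulls by 2.17 more than Pdx1 on the log2 scale (95% interval of the difference in change -3.44 to -0.90) and by 1.98 more than Prox1 (-2.87 to -1.09). Against Meis1 the difference in change was -2.51 (-3.34 to -1.68). The interval against Nkx6-1 included 0, at -1.71 (-3.47 to 0.052). For all 8 genes the within-array difference was lower on every null array than on either heterozygote array. All 8 differences use the same Mnx1 signals, whose groups were 2.19 apart by themselves, so they do not count as 8 separate results. Mnx1 was set against the others because its value was already known, so these differences and intervals are a description. An exact permutation over the arrays gave p = 0.1 for each of the 8 genes. That is the smallest value its 10 splits allow, so it could not decide.

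Pdx1 encodes the factor that marks the pancreatic field and is required for growth of both buds. At the brighter probe set (1422174_at) the log2 signals were 7.61 and 7.73 in heterozygotes and 7.05, 7.32 and 7.13 in nulls. At the other probe set (1422173_at) they were 5.73 and 5.99 against 4.77, 5.03 and 5.25. Both probe sets had all nulls below both heterozygotes, and null array 1 was the lowest at each. The log2 changes were -0.51 (SE 0.34, 95% interval -1.39 to 0.37) and -0.84 (SE 0.36, interval -1.78 to 0.10), with untrended limma adjusted p = 0.991 and 0.942. Spread within groups was low for the brighter probe set (SD 0.12, lower than that of all but 5.8% of probe sets above background), and the trended fit still gave adjusted p = 0.976 for each. The probe sets represent the same gene and are not independent measurements.

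Plut, a long noncoding RNA whose RefSeq gene overlaps Pdx1, was among the 5 genes whose pattern over the arrays was most like that of Mnx1. The log2 signals of its probe set (1453403_at) were 7.25 and 7.08 in heterozygotes and 6.20, 5.84 and 6.07 in nulls. Every null array was lower, by at least 0.88, and the mean difference was 2.19-fold (log2 change -1.13, SE 0.35, 95% interval -2.03 to -0.23). It did not pass adjustment (limma adjusted p = 0.786 untrended, 0.927 trended). Cdx2, an intestinal homeodomain gene 3 places from Pdx1 in the RefSeq order, had overlapping groups at 1422075_at, at 5.37 and 2.58 against 5.75, 6.25 and 3.29. Its other probe set (1422074_at) had all nulls higher, at 0.95 and 0.71 against 3.91, 1.59 and 1.12, but was above background on 1 array only. Within 3 places of the 9 genes, 12 neighbouring genes had 22 probe sets, of which 12 lay above background throughout. Of those 12, Plut, 1 of Ube3c near Mnx1 and 1 of Exoc6 near Hhex had all nulls lower and 0 had all nulls higher, where 9.95% and 9.63% of all probe sets above background did so. By either fit 0 of the 22 were called. Plut was singled out after its values were seen.

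**Figure D3:**
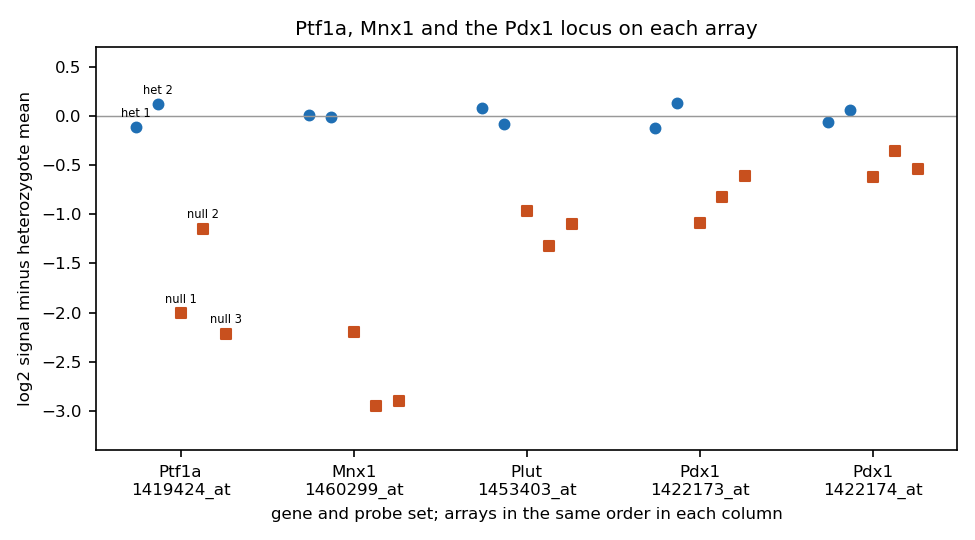
Log2 signal of Ptf1a, Mnx1, Plut and both Pdx1 probe sets on each array, minus that gene's heterozygote mean (vertical axis), with heterozygotes 1 and 2 as circles and nulls 1 to 3 as squares, in the same order in each column. All null points lie below both heterozygotes in each column, from more than 2 below for Mnx1 to less than 1 below for the brighter Pdx1 probe set.

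The sequences upstream of the Mnx1 and Pdx1 start sites are shown because E-boxes are part of the site that Ptf1a complexes bind. They are the 250 bases before the start in RefSeq (GRCm38.p6), on the strand of the gene, with matches to the E-box (CANNTG, the same on both strands) in capitals. Mnx1 lies on the minus strand at chr5:29478471-29478720 and Pdx1 on the plus strand at chr5:147269847-147270096.
Mnx1: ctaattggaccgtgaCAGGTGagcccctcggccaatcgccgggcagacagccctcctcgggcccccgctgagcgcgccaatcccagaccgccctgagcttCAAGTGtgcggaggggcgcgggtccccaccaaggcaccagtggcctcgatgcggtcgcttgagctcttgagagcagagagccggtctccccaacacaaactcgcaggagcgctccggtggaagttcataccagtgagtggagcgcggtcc
Pdx1: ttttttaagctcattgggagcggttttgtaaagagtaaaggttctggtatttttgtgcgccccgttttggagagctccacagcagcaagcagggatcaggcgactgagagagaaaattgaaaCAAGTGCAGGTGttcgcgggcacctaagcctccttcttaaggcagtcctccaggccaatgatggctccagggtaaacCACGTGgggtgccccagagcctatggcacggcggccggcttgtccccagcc
The Mnx1 window held 2 E-box matches and that of Pdx1 held 3, where 66.2% of 32841 RefSeq promoter windows of the same length held at least 1. Neither held the core of the TC-box (TGGGAA on either strand), which 21.6% of windows held. The homeodomain core TAAT occurred once on either strand in the Mnx1 window (54.9% of windows held it) and was not found in that of Pdx1. Among the windows of the other genes, those of Nkx6-1, Hhex and Meis2 held 0 E-boxes, that of Nkx2-2 held 3, and TC-box cores were found at Meis1 and at 1 of the 2 Prox1 starts. A match is a description of letters, and these windows leave out distal enhancers.

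Nkx6-1 and Nkx6-2 are paralogues that act in progenitors of the bud, with Nkx6-1 later needed in beta cells. Nkx6-1 (1425828_at) had 6.25 and 5.59 in heterozygotes and 5.44, 4.01 and 5.40 in nulls. The groups did not overlap, but nulls 1 and 3 lay close under heterozygote 2 and null 2 was far lower. The log2 change was -0.97 (SE 0.61, 95% interval -2.54 to 0.60, limma adjusted p = 0.991). It moved from -0.51 without null replicate 2, and -0.63 without heterozygote replicate 1, to -1.29 without heterozygote replicate 2. Nkx6-2 (1427420_at) had 7.43 and 7.07 in heterozygotes against 7.61, 7.96 and 7.27 in nulls, with null 3 between the heterozygotes. Its log2 change was 0.36 (SE 0.40, interval -0.67 to 1.39), and it was 0.18 without heterozygote replicate 2 and 0.19 without null replicate 2. The paralogues differed in sign without either passing, and that difference was not tested.

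Nkx2-2 specifies endocrine cell types of the pancreas. Its signals (1421112_at) were 7.49 and 7.98 in heterozygotes and 7.49, 7.56 and 6.83 in nulls. The groups overlapped, as null 2 exceeded heterozygote 1, and null 3 was the lowest array. The log2 change was -0.44 (SE 0.43, 95% interval -1.55 to 0.66), ranging from -0.69 to -0.20 as single arrays were left out, both ends set by a heterozygote array (1 and 2, in that order), and -0.21 without null replicate 3. The summed linear signal of 11 measured endocrine markers was 4864 to 9425 in heterozygotes, a range that spanned the 6170 to 8388 of nulls. Gcg, the glucagon gene, was at 10.57 on heterozygote 1 and at 11.34 to 11.85 on the other arrays. The part of endocrine cells in the Nkx2-2 values was not tested.

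Prox1 and Hhex are factors shared by liver and pancreas. Prox1 was measured by 3 probe sets, all lower on average in nulls. At the brightest (1437894_at) the signals were 8.05 and 8.43 in heterozygotes and 7.68, 7.55 and 7.41 in nulls, with no overlap. The log2 change was -0.70 (SE 0.36, 95% interval -1.61 to 0.22, untrended limma adjusted p = 0.976), and the trended interval was -1.25 to -0.15 with adjusted p = 0.976. At 1457432_at (6.14 and 6.95 against 6.36, 4.84 and 5.41) and 1421336_at (4.74 and 5.69 against 5.29, 4.24 and 4.20) null array 1 lay above heterozygote array 1, so these probe sets overlapped, with changes of -1.01 and -0.64. Heterozygote 2 was the highest array at each of the 3 probe sets. Prox1os, a noncoding RNA that overlaps Prox1 in RefSeq, had signals of 3.03 and 6.03 against 4.83, 3.67 and 4.72, which overlapped.

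Hhex (1423319_at) had 6.86 and 7.07 in heterozygotes and 7.77, 7.72 and 6.69 in nulls. Nulls 1 and 2 were above both heterozygotes and null 3 was below them. The log2 change was 0.43 (SE 0.49, 95% interval -0.83 to 1.68, limma adjusted p = 0.999), and moved from 0.24 without null replicate 1, and 0.27 without null replicate 2, to 0.77 without null replicate 3. Summed signal of 10 measured hepatoblast markers was higher in nulls, at 7834 to 8308 against 5343 to 7150, with 6 markers higher and 4 lower and the sum mostly from Ttr. Afp, the alpha-fetoprotein gene, was at 7.59 and 9.08 in heterozygotes and 9.76, 10.09 and 9.76 in nulls, and Rbp4 and Apoa1 also had all nulls higher (log2 changes 0.50 and 1.33). Alb, the albumin gene, was dimmer, at 3.20 and 3.85 against 3.78, 4.65 and 5.41. Fga lay at background on every array. Summed signal of 13 endothelium markers, a cell type where both genes are also known, was 314 to 523 in heterozygotes and 264 to 659 in nulls. The part of these cells in the values of Prox1 and Hhex was not tested.

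Meis1 and Meis2 encode TALE cofactors and were nearly level. The brightest Meis1 probe set (1443260_at) had 7.88 and 7.97 in heterozygotes and 7.85, 7.76 and 7.66 in nulls. Its groups were separated by 0.031 on the log2 scale, and the change of -0.17 (95% interval -1.03 to 0.69) had a limma adjusted p of 0.999. The other Meis1 probe sets had changes of -0.29 (1450992_a_at) and -0.094 (1459423_at), both with overlapping groups. For 1459423_at the heterozygotes were 4.47 and 6.24, far apart on either side of the nulls at 5.12 to 5.33. The brightest Meis2 probe set (1457632_s_at) had 9.08 and 8.53 in heterozygotes and 8.96, 8.89 and 9.14 in nulls, a change of 0.20 (interval -0.77 to 1.16). The other Meis2 probe sets differed by 0.032 (1417129_a_at), 0.078 (1440091_at) and -0.33 (1447861_x_at), all overlapping, so the sign for Meis2 depends on the probe set. The suffixes _s_at and _x_at stand for probe sets whose probes may also detect other transcripts, and _a_at for those shared among transcripts of 1 gene.

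Mesenchyme is also known to express Meis1 and Meis2, and most of its markers were higher in nulls. Summed signal of 16 markers was 1353 to 1620 in heterozygotes and 1694 to 2120 in nulls. Of the 16, 13 were higher and 3 lower, and Twist1 lay at background on every array. For the 8 above background on all arrays, 7 were higher and 1 lower. Pdgfra was at 7.85 and 7.52 against 7.99, 8.04 and 8.67. The part of these cells in the Meis values was not tested. For every gene here, fewer cells that express it and less RNA in each cell cannot be told apart in pooled buds.

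Counted over all 17 probe sets, 12 were lower and 5 higher in nulls. For 6 of them, or 35.3%, every null array lay below both heterozygotes: both of Pdx1 and 1 each of Mnx1, Nkx6-1, Prox1 and Meis1. The same held for 9.95% of the 20815 probe sets above background on all arrays. For 0 of the 17 were all nulls higher, against 9.63% of those probe sets. A difference of 1 or more downward on the log2 scale was found for 2 of the 17, Mnx1 and 1 probe set of Prox1, against 1.6%. With 1 brightest probe set for each of the 9 genes, 6 were lower and 3 higher, and the median log2 change was -0.44 against -0.0050 over probe sets above background. The genes were chosen with earlier results of these data known, among them the value of Mnx1, so these shares are a description.

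**Figure D4:**
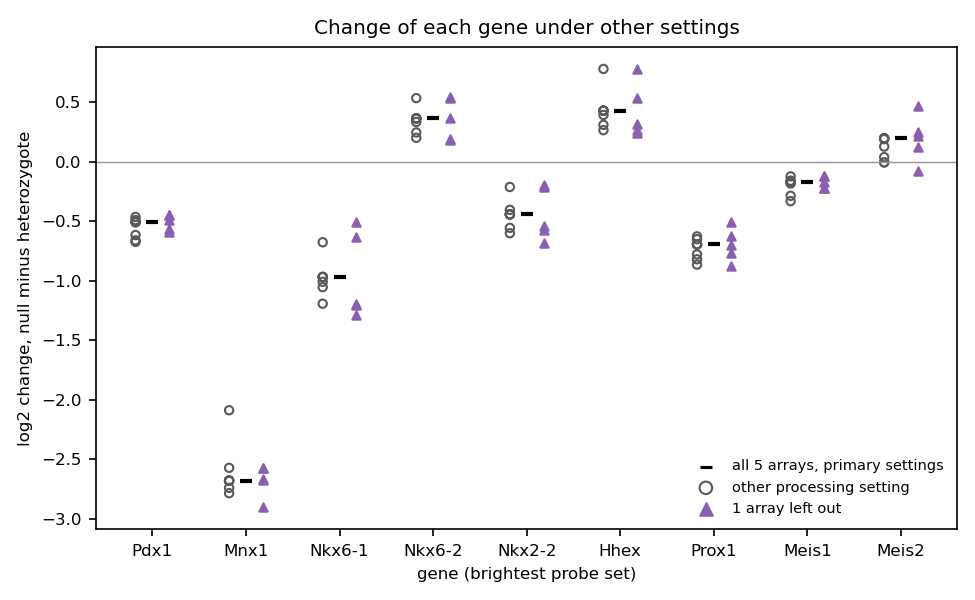
Log2 change (null minus heterozygote) of the brightest probe set of each of 9 genes with all arrays (bars), under other processing settings (open circles) and with 1 array left out (triangles). Mnx1 stays between -2.90 and -2.09, and Meis2 is the only one of the 9 with points on both sides of 0.

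Motor neurons, ventral neural tube and notochord are other known sites of Mnx1, Nkx6-1 or Nkx2-2 expression. Of 13 measured markers of motor neurons and ventral neural tube, 3 lay above background on all arrays. Of these, Dcx had all nulls higher (log2 change 1.00). Chat and Elavl3, above background on 1 and 3 arrays, had all nulls lower (-2.52 and -2.59). Olig2 was above background on 1 array. Their summed signal was 232 to 421 in heterozygotes and 254 to 381 in nulls, which overlapped. Notochord and floor plate markers summed to 481 to 806 in heterozygotes and to 305 to 434 in nulls, with 6 of 8 lower. Most of that sum came from Spon1, at 7.92 and 8.87 against 7.07, 6.90 and 6.47, and from Foxa2, which the bud epithelium shares. Shh was above background on 3 arrays and Nog on none. The part of neural, notochord or floor plate tissue in the Mnx1 values was not tested.

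The summed signals of red cell and of neural crest markers also separated by genotype. Summed signal of 7 red cell markers was 9415 to 11651 in heterozygotes and 7900 to 8811 in nulls, with 6 lower. In 4 of them (Hba-x, Hbb-bh1, Alas2 and Epor) all nulls were lower, against 9.95% of probe sets above background on all arrays. Epor separated by 0.041, and Hbb-y, the brightest of the 7, differed by -0.063. For 5 measured markers of spinal neural crest and glia the summed signal was 163 to 230 against 301 to 339, with 4 higher. Of the 5, 2 lay above background on all arrays. Only Tfap2b had all nulls higher, at 3.63 and 2.74 against 5.27, 6.57 and 5.20. Ret gave the largest part of the sum, at 7.22 and 6.86 against 7.53, 7.20 and 7.77, which overlapped. The part of these cells in the values of the 9 genes was not tested.

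Markers of the pancreatic and foregut epithelium were set beside Pdx1 and Mnx1. Their summed signal was 4215 to 5217 in heterozygotes and 5459 to 6913 in nulls, with 6 of 11 higher and a median log2 change of 0.090. Most of that sum came from Krt8 and Krt18. Foxa1, a forkhead factor, was at 7.13 and 7.21 against 9.26, 8.96 and 8.76, and was called higher in the trended fit only (limma adjusted p = 0.0219, 0.448 untrended). Krt18, a simple epithelial keratin, was at 9.92 and 9.80 against 10.56, 10.66 and 10.36. Cdh1, the epithelial cadherin, was at 7.67 and 8.60 against 8.01, 7.50 and 7.63. The part of epithelial content in the values of the 9 genes was not tested.

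Genes related to the 9 by function were taken from lists. Of 12 measured TALE genes other than Meis1 and Meis2, 7 were higher and 5 lower in nulls (median log2 change 0.095, and -0.013 for the 9 above background), and 0 were called in either fit. Those of lowest p were Meis3 (0.64), Tgif1 (-0.60, all nulls lower) and Irx5 (0.45, above background on 1 array). The main Pdx1 partner family was represented by Pbx2 and Pbx3, with changes of 0.16 and 0.36. Among 11 other homeodomain genes of the pancreas and foregut, 7 were higher and 4 lower, and 0 were called. Onecut2 was at 6.59 and 6.36 against 7.72, 8.26 and 7.30 (change 1.29, limma adjusted p = 0.838 untrended and 0.653 trended). Nkx6-3, the third gene of the Nkx6 family, which is known in stomach, was higher on all null arrays, at 4.13, 4.45 and 4.91 against -1.19 and 3.45. The first of those heterozygotes, the only array below background, lay far from the other 4, and the 95% interval of the change was -0.26 to 6.995 untrended (limma adjusted p = 0.935) and 0.89 to 5.84 trended (0.976). Lhx1 differed by -1.08.

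Genes reported to be bound or regulated by Pdx1 lay on both sides of 0. Of 16 measured, 7 were higher and 9 lower, with a median log2 change of -0.063 and 0 called. The lowest p-values were those of Cpa1, an exocrine enzyme, Ptf1a and Nr5a2, a nuclear receptor. Cpa1 had signals of 6.21 and 6.03 in heterozygotes and lay below background on all nulls, and Nr5a2 differed by -1.24 with all nulls lower. Ptf1a, which differed by -1.79, is the mutated gene itself, so its value is not a readout of Pdx1. Iapp, an islet peptide gene, was higher in nulls, at 8.61 and 9.27 against 9.61, 9.98 and 9.71. Of 11 measured genes reported to be regulated by Nkx2-2, Nkx6-1 or Mnx1, 6 were higher and 5 lower with 0 called and a median of 0.30, which was -0.010 for the 7 above background. Insm1 (-0.69), Slc2a2 (-1.50) and G6pc2 (1.18) had the lowest p, and Slc2a2 and G6pc2 were each above background on 3 arrays. Slc2a2 was at 3.97 and 2.96 against 3.92, -1.45 and 3.43, so null 2 alone lay below both heterozygotes.

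Over the 5 arrays, the genes most like Mnx1 in pattern were Ffar2 (Pearson r 0.997), Dap (0.989), Plut (0.989), Sema3f (0.988) and Vtn (0.987), out of 5185 probe sets above background with an SD of at least 0.5. Those most like Pdx1 were Parm1 (0.996), Polr3d (0.995), Utp25 (0.994), Zfp934 (0.991) and Cracdl (0.991). With 5 arrays in 2 separate groups such values describe mainly the genotype difference, and 120 and 95 probe sets respectively reached an r of 0.9 or more.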

How the data were processed

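Gene expression was measured on Affymetrix mouse GeneChip arrays from 2 heterozygote and 3 null pools. For 45101 probe sets the authors deposited signal intensity on a linear scale. The submitters' processing notes list GCOS and RMA with no role for either, and how background was handled is not stated there. Since the values were linear with unequal medians, log2 was taken without an offset and the arrays were quantile normalised. Of the 64 control probe sets, 27 for Bacillus subtilis genes set the background level on each array (their 95th percentile). The fit was limma 3.58.1 (lmFit, eBayes) in R 4.3.3 with genotype as sole term, two-sided, and Benjamini-Hochberg adjustment over 45037 probe sets at 0.05; a trended, robust eBayes fit is an alternative. Symbols came from the platform annotation, and all 17 of the member probe sets carried the current RefSeq symbol. The members and lists were chosen with earlier results of these data known. Named are all member probe sets, up to 3 genes of lowest p per related list, markers, and the 5 likest patterns for Mnx1 and Pdx1; genes named beyond that were chosen after their values were seen. Alternatives were median centring, no normalisation, an offset of 16, values raised to background, a filter on dim probe sets (above background on 2 or more arrays), a replicate block and each array left out.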

Additional observations from a re-analysis of the deposited data

How the results depend on the processing

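None of the 17 homeodomain probe sets was called under any alternative run on the untrended fit, which called 0 probe sets on the array under each, or in the trended fit with the other settings kept, which called 8. Mnx1 was called in the trended fit with dim probe sets removed (limma adjusted p = 0.03) or with an offset of 16 (0.0374). Each of these settings called 10 probe sets on the whole array. Both used all 5 arrays and were added after seeing the data. In none of the other 7 trended combinations was Mnx1 called. Its limma adjusted p was 0.0823 with median centring, 0.0986 without normalisation and 0.16 to 0.35 with a null array left out. The median log2 change over the 9 genes, -0.44, was -0.60 without normalisation, and with 1 array left out it ranged from -0.57, without heterozygote replicate 1, to -0.20, without heterozygote replicate 2; without null replicate 3 it was -0.21. With the replicate number as a block, on the 4 arrays whose number occurs in both genotypes, it was -0.21 and that of Mnx1 -2.57 (limma adjusted p = 0.851), with 1 residual degree of freedom. Deviations from the group means correlated at -0.091 and 0.058 for same-numbered arrays. With 2 heterozygotes their deviations mirror each other, so these values cannot decide whether the numbers mark pairs. The numbers were not taken as pairs. Of the 9 genes, 8 kept their sign in all 13 alternatives. Meis2 reversed without normalisation (-0.0080) and with its probe sets averaged (-0.0063), and it ranged from -0.081, without heterozygote replicate 2, to 0.47 with 1 array left out; the cause was not tested. Mnx1 ranged from -2.90 to -2.09, and its limma adjusted p from 0.0612 to 0.851 over the same 13 alternatives. With an offset of 16 the change of Mnx1 went from -2.68 to -2.09 and that of Nkx6-1 from -0.97 to -0.68. With values raised to background, or with dim probe sets removed, the changes of Mnx1 and Nkx6-1 stayed at -2.68 and -0.97. Among these ways of treating low signals, only the offset altered their size.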
